A study of Mus musculus with 6 samples.

Results

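The 54 genes described here encode the lysosome's hydrolases, its membrane proteins and the proton pump that acidifies it, the V-ATPase, together with the transcription factor gene Tfeb. They were chosen by symbol from the 52550 genes of the count table: 32 were named in a list, and 22 matched the V-ATPase symbol pattern (Atp6v0 or Atp6v1). The list holds 11 cathepsins, 8 glycosidases, 6 membrane proteins, 6 other soluble proteins and Tfeb. The pattern gave 9 subunits of the membrane sector V0 and 13 of the cytosolic sector V1. Each symbol belonged to 1 gene.

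Hippocampal RNA was sequenced from male mice of the strain C57BL/6J, in 3 libraries per group, each from 1 mouse. An adeno-associated virus (AAV) had been placed in the CA1 field on both sides when the mice were 8 weeks old, and every library carries the label 31 days. In the TAF15 OE group the virus carried TAF15, an RNA-binding protein of the FET family, under a CaMKIIα label, the name of a promoter active in excitatory neurons. The Control group received a control virus. Virus was placed in CA1, while RNA was taken from the hippocampus, so a library holds RNA from many cells outside the injected field and from cell types other than excitatory neurons. The series is about how raised TAF15 affects memory and Npas4, and here the question is how the lysosomal transcripts differed.

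Lysosomes digest material from endocytosis, phagocytosis and autophagy. Their enzymes work in acid, and the V-ATPase makes that acid by coupling ATP hydrolysis in V1 to proton movement through V0. TFEB is a basic helix-loop-helix factor that binds a short E-box element, the CLEAR motif, near many lysosomal genes. In brain, every cell type has lysosomes. Microglia are rich in cathepsins and in phagocytic membrane proteins such as CD68, while neurons also place the V-ATPase on synaptic vesicles, where the proton gradient drives transmitter loading.

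Total counts ran from 14965464 to 16067000 per library, and 49 of the 54 genes passed the filter on low counts, as did 16758 genes in all. Taf15 itself had 908, 958 and 795 counts in the Control libraries, against 3897, 3661 and 4477 in the TAF15 OE libraries. The neuronal genes Slc17a7, Camk2a and Neurod6 of hippocampus were among the detected genes in every library, at 1184 CPM or more for Slc17a7. The first principal component (46.3% of the variance) separated the groups. On the second (21.7%), Control 1 and TAF15 OE 1 lay away from the remaining 4, so counts of changed genes are also given without that pair. Summed choroid plexus markers were 150.4 CPM (counts scaled to a fixed library total) in Control 1 and 1563 in TAF15 OE 1, against 4367 to 5071 in the others.

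Of the 49 tested genes, 25 were higher in TAF15 OE (51.0%) against 9.32% of all tested genes. Another 8 were lower (16.3%) against 5.95% of all tested genes. These calls are at an adjusted p below 0.05 in edgeR's quasi-likelihood test, with Benjamini-Hochberg adjustment over all 16758 genes. The median log2 fold change, TAF15 OE over Control, was 0.29 over the 49 genes and 0.03 over all tested genes. By class the calls split. Membrane proteins rose in 6 of 6, cathepsins in 8 of 11, other soluble proteins in 5 of 6 and glycosidases in 4 of 8, as did Tfeb. V-ATPase subunits fell in 7 of 17 and rose in 1 of 17.

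The class medians showed the same split. They were 0.77 for membrane proteins, 0.70 for cathepsins, 0.39 for glycosidases, 0.30 for other soluble proteins and -0.21 for V-ATPase subunits on the log2 scale. Under the alternative settings these medians ran from 0.60 to 0.87, from 0.58 to 0.74, from 0.24 to 0.44, from 0.25 to 0.35 and from -0.25 to -0.16. The groups did not overlap, with TAF15 OE above, in 27 of the 49 genes, against 19.1% of all tested genes. They did not overlap with TAF15 OE below in 13, against 15.5% of all tested genes, and 12 of those 13 were V-ATPase subunits. Without Control 1 and TAF15 OE 1, 23 genes were higher and 6 lower. Over all genes that fit called 2214 of 16968, of which 1197 were higher.

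**Figure D1:**
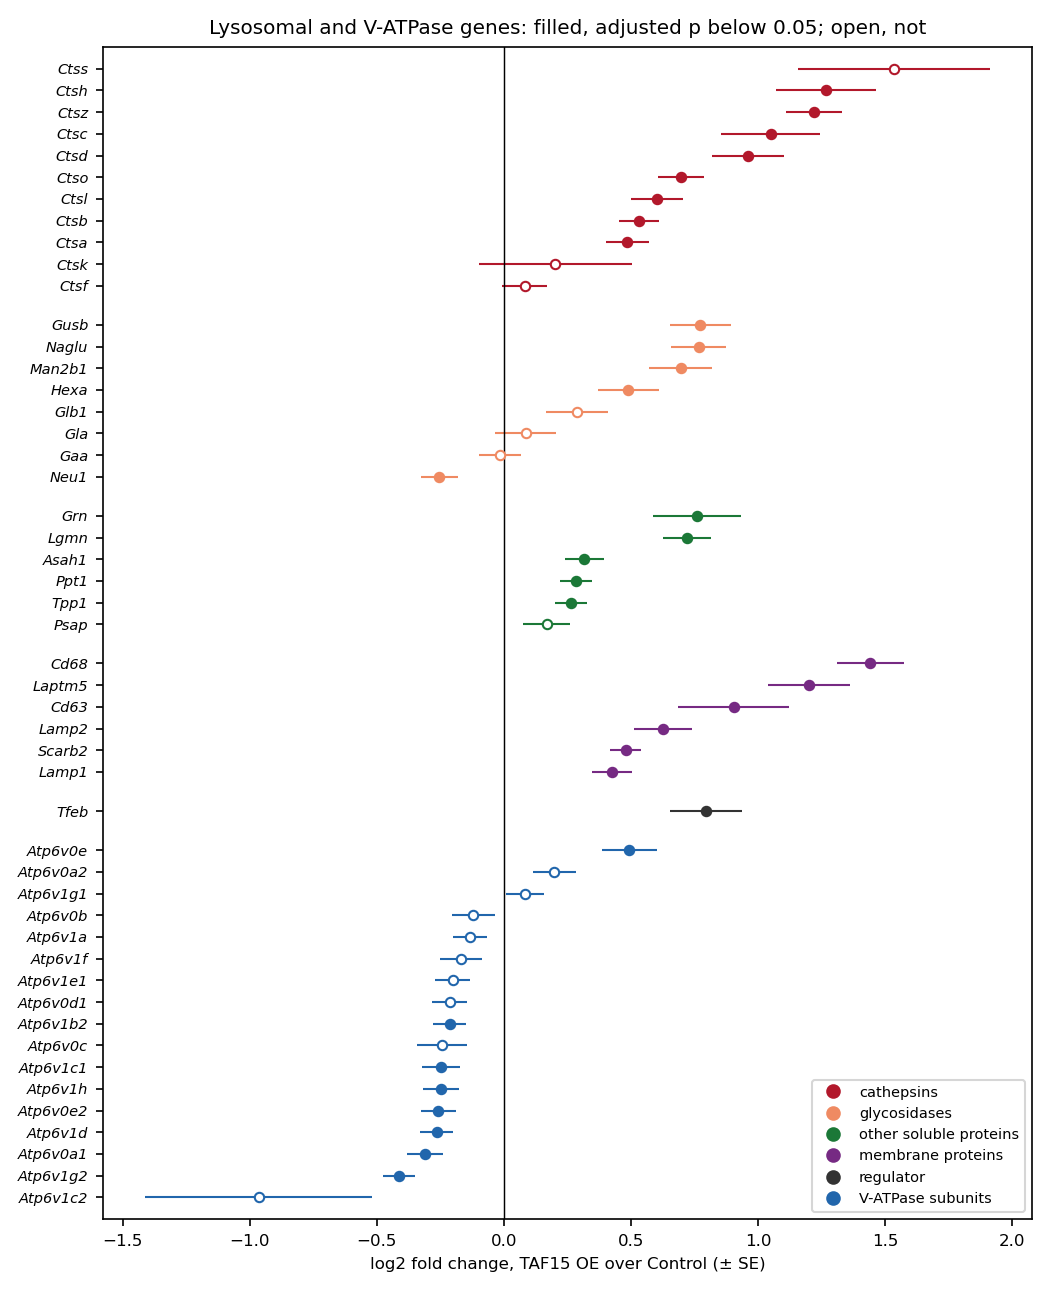
Log2 fold change of each tested gene, TAF15 OE over Control, with bars of 1 standard error, grouped and coloured by class. Filled points have an adjusted p below 0.05 and open points do not. All membrane proteins and cathepsins lie to the right of 0, and 14 of 17 V-ATPase subunits lie to the left. The median over all tested genes was 0.03.

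Markers of cell types moved between the groups as well, where 9.32% of all tested genes rose and 5.95% fell. Of 16 microglia markers, 15 rose, with a median log2 fold change of 1.10, and their summed level was 632, 606 and 578 CPM in Control and 1770, 1165 and 1193 CPM in TAF15 OE. The highest sum was in TAF15 OE 1, the library with the highest level of 19 of the 49 genes described here, among them 7 of the 11 cathepsins. Of 16 neuronal markers, 10 fell, with a median of -0.28. Their summed level was 15014, 12980 and 13709 CPM in Control and 11356, 10632 and 10038 CPM in TAF15 OE. Markers of oligodendrocytes rose in 8 of 10, of astrocytes in 6 of 10, of endothelial cells in 3 of 8, of T cells in 4 of 5, of B and plasma cells in 3 of 4 and of perivascular macrophages and monocytes in 1 of 7. The part of these shifts, or of the choroid plexus level of Control 1, in the lysosomal and V-ATPase values was not tested. In RNA from whole tissue, a different number of cells of a type and a different amount of RNA per cell cannot be told apart.

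**Figure D2:**
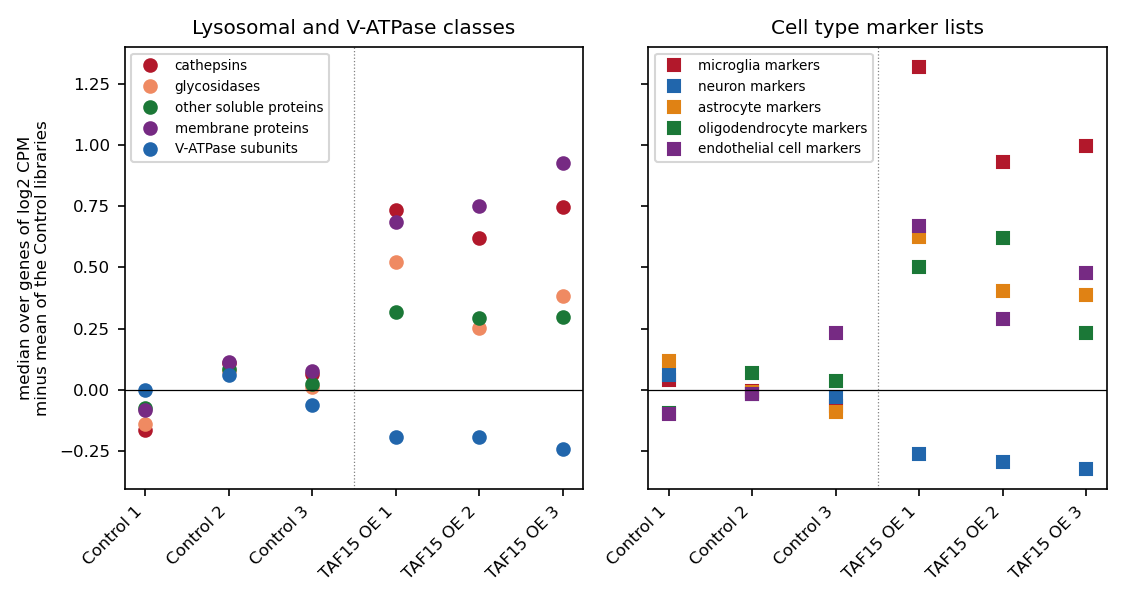
Median over the tested genes of each class of the log2 level of each library relative to the Control mean. For the cathepsins the Control libraries lie between -0.16 and 0.11 and the TAF15 OE libraries between 0.62 and 0.75. For the V-ATPase subunits Control lies between -0.06 and 0.06 and TAF15 OE between -0.24 and -0.19.

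The promoter letters show which of these genes carry the CLEAR-type motif beside the start of transcription. RefSeq windows of 300 bases (250 before to 50 after the start, GRCm38.p6) were available for 45 of the 54 genes. The letters TCACGTG, on either strand, were found in 12 of the 45 (26.7%) and in 4.29% of the 27025 genes with a window. The shorter E-box CACGTG, which lies inside TCACGTG, was found in 14 (31.1%) against 8.09%. The letters GAGGAAG, a PU.1-type sequence of myeloid genes, were found in 9 (20.0%) against 15.4%. Among genes with a window, TCACGTG was present in 6 of the 22 that rose (27.3%), 6 of the 14 that were tested and not called (42.9%), 0 of the 5 that fell and 0 of the 4 not tested. The stretches below run 120 bases from 5′ to 3′ on the gene's own strand, with TCACGTG or its reverse complement in capitals, and show a lysosomal membrane protein, a protease, a glycosidase, a processing enzyme and a V-ATPase subunit with the motif. The gene's strand is given with each. Starts are those of RefSeq, and 6 of the 45 genes had more than 1 window. The Ctsd and Lgmn stretches lie wholly inside the authors' positions of those genes, and the Naglu and Atp6v0b stretches in part.
Lamp1, chr8:13159041-13159160, plus strand: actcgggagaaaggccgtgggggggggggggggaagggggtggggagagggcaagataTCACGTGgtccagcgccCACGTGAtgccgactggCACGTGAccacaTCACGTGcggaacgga
Ctsd, chr7:142387828-142387947, minus strand: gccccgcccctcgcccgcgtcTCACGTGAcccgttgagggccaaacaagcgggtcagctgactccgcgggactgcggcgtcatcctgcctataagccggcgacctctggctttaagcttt
Naglu, chr11:101069974-101070093, plus strand: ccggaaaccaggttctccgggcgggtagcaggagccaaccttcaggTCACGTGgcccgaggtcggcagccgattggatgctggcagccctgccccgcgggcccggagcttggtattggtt
Lgmn, chr12:102439093-102439212, minus strand: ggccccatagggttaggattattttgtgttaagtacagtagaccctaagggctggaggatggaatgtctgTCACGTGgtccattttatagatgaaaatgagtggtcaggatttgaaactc
Atp6v0b, chr4:117887330-117887449, minus strand: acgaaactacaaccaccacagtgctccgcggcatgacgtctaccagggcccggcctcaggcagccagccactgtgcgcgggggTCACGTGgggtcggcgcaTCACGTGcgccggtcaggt
The motif was present 4 times in the Lamp1 stretch, starting 62, 45, 28 and 16 bases before the start of transcription. The 4 genes other than Atp6v0b rose, while Atp6v0b had a log2 fold change of -0.12 (adjusted p = 0.394), so genes with the motif differed in their calls. A match of letters is a description of the window, and binding was not measured here.

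Cathepsins are the lysosome's proteases. Of 11 measured, 8 rose, and each of the 8 was still called with any 1 library left out. Among the cysteine cathepsins, Ctsz (cathepsin Z, a carboxypeptidase; ENSMUSG00000016256, chromosome 2, 174427493 to 174439039) measured 54.0, 60.9 and 59.0 CPM in Control and 159, 116 and 131 CPM in TAF15 OE. Every TAF15 OE library was above every Control library, and the rise was 2.33-fold (log2 1.22, SE 0.11, adjusted p = 0.00023). Ctsh, an aminopeptidase (ENSMUSG00000032359, chromosome 9, 90054152 to 90076089), measured 14.2, 17.97 and 18.2 CPM in Control and 53.2, 33.5 and 34.5 CPM in TAF15 OE. It rose 2.41-fold (log2 1.27, SE 0.20, adjusted p = 0.00587), with TAF15 OE 1 well above the other treated libraries.

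Ctsc (cathepsin C, which activates serine proteases of immune cells; ENSMUSG00000030560, chromosome 7, 88278085 to 88310888) measured 16.2, 20.6 and 21.1 CPM in Control and 49.97, 29.5 and 40.5 CPM in TAF15 OE. The rise was 2.07-fold (log2 1.05, SE 0.20, adjusted p = 0.0121), and the groups did not overlap. Ctsb (cathepsin B, chromosome 14, 63122462 to 63145923) is a broad endopeptidase. It measured 601, 641 and 613 CPM in Control and 989, 834 and 860 CPM in TAF15 OE, a rise of 1.45-fold (log2 0.53, SE 0.08, adjusted p = 0.00195). Ctsl (cathepsin L, chromosome 13, 64359337 to 64370890), another endopeptidase, measured 68.1, 87.7 and 86.1 CPM in Control and 116, 117 and 134 CPM in TAF15 OE. It rose 1.52-fold (log2 0.60, SE 0.10, adjusted p = 0.00427), again with no overlap. Ctso (chromosome 3, 81932601 to 81956725), a less studied family member, measured 29.3, 34.6 and 34.0 CPM in Control and 54.1, 55.0 and 49.5 CPM in TAF15 OE. The treated libraries were close together and all higher, and the rise was 1.62-fold (log2 0.70, SE 0.09, adjusted p = 0.00109).

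Cathepsin D, from Ctsd (ENSMUSG00000007891, chromosome 7, 142375911 to 142388038), is the main aspartic protease of the lysosome, and its loss causes a neuronal ceroid lipofuscinosis. Ctsd measured 125, 176 and 168 CPM in Control and 348, 289 and 276 CPM in TAF15 OE. The groups were far apart, and the rise was 1.95-fold (log2 0.96, SE 0.14, adjusted p = 0.00525). An annotated gene on the same strand, Gm49369, covers 34.4% of its exonic bases, and reads of Ctsl can be shared with the antisense gene Gm47123 over 26.8% of its exonic bases, so their counts carry that uncertainty. Ctsa (cathepsin A, a serine carboxypeptidase; chromosome 2, 164832873 to 164841032), the enzyme that shields β-galactosidase and neuraminidase 1 in a complex, measured 89.0, 111 and 100 CPM in Control and 142, 134 and 145 CPM in TAF15 OE. Ctsa rose 1.40-fold (log2 0.49, SE 0.08, adjusted p = 0.00412).

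Ctss was not called, although it had the largest log2 fold change of the family with all 6 libraries. Cathepsin S is an elastinolytic protease of antigen-presenting cells and a microglial enzyme in brain (ENSMUSG00000038642, chromosome 3, 95526786 to 95556403). Its levels were 119.8, 133 and 126 CPM in Control and 568, 255 and 274 CPM in TAF15 OE. All treated libraries lay above all controls, and TAF15 OE 1 lay far above the other treated libraries. The log2 fold change was 1.53 (SE 0.38, adjusted p = 0.0707), and 1.04 without TAF15 OE 1 (adjusted p = 7.82e-06), where Ctsz, at 1.07, was larger. With DESeq2 on all 6 libraries the adjusted p was 0.00309. In the authors' deposited table its adjusted p was 0.00319, which is not separate evidence, since that table matches DESeq2 (see the processing section).

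Ctsf and Ctsk did not differ beyond their spread. Cathepsin F was at 56.8 ± 5.94 CPM in Control and 60.1 ± 3.09 CPM in TAF15 OE (SD, n = 3, log2 0.08, adjusted p = 0.595). Cathepsin K, the bone-resorbing collagenase, was scarce, at 2.41 ± 0.504 and 2.77 ± 0.884 CPM (SD, n = 3, log2 0.20, adjusted p = 0.713). Control 1 had the lowest level of all 11 cathepsins.

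Cathepsins are inhibited by cystatins and by some serpins. Of 6 such genes tested, the cystatin genes Cst7 and Cst3 rose, against 9.32% of all tested genes. Cystatin F, from Cst7, acts in the endolysosome of immune cells, and was at 1.83, 2.79 and 1.53 CPM in Control and 31.1, 15.6 and 20.1 CPM in TAF15 OE, a log2 fold change of 3.43 (adjusted p = 0.00111). Cst3, the abundant secreted cystatin C, rose 1.498-fold from 888 ± 66.5 to 1331 ± 109 CPM (SD, n = 3, adjusted p = 0.00175). Cstb, cystatin B of the cytosol, had a log2 fold change of 0.15 (adjusted p = 0.427).

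Glycosidases remove sugars from glycoproteins, glycolipids and glycosaminoglycans, and defects in them cause storage diseases. Of 8, 4 rose and 1 fell. Gusb (β-glucuronidase) measured 15.8, 20.4 and 17.9 CPM in Control and 34.0, 27.9 and 30.6 CPM in TAF15 OE, with no overlap. It rose 1.71-fold (log2 0.77, SE 0.12, adjusted p = 0.00246). Naglu, which acts in heparan sulfate breakdown, measured 12.8, 14.5 and 14.7 CPM in Control and 25.1, 22.7 and 23.6 CPM in TAF15 OE. The rise was 1.70-fold (log2 0.77, SE 0.11, adjusted p = 0.00149), with little spread among the treated libraries. Man2b1, the α-mannosidase whose loss causes α-mannosidosis, measured 54.8, 71.0 and 74.2 CPM in Control and 119.6, 94.6 and 109.6 CPM in TAF15 OE. It too rose without overlap, 1.62-fold (log2 0.70, SE 0.12, adjusted p = 0.00771).

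Hexa encodes the α chain of β-hexosaminidase A, an enzyme that degrades GM2 ganglioside. It measured 53.7, 50.4 and 51.6 CPM in Control and 88.9, 63.2 and 66.3 CPM in TAF15 OE. It rose 1.40-fold (adjusted p = 0.0242), but its log2 fold change was 0.49 with all libraries and 0.30 without TAF15 OE 1. Its call was lost without any 1 of the Control libraries (adjusted p from 0.0672 to 0.1).

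Neu1, the sialidase that Ctsa protects, moved the other way. Its levels (ENSMUSG00000007038, chromosome 17, 34931253 to 34935953) were 56.9, 58.2 and 57.8 CPM in Control and 49.6, 48.7 and 46.6 CPM in TAF15 OE. Every treated library was lower, and Neu1 fell 1.19-fold (log2 -0.25, SE 0.07, adjusted p = 0.0348). That call was lost without Control 1, Control 2, Control 3, TAF15 OE 2 or TAF15 OE 3 (adjusted p from 0.0746 to 0.0993). Glb1, β-galactosidase, the remaining member of that complex, was at 22.8 ± 3.55 CPM in Control and 27.9 ± 1.89 CPM in TAF15 OE (SD, n = 3, log2 0.29, adjusted p = 0.142). Gaa, which degrades glycogen, had a log2 fold change of -0.02 (adjusted p = 0.928), and Gla, the α-galactosidase lacking in Fabry disease, of 0.09 (adjusted p = 0.693).

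The other soluble proteins include activators, lipases and processing enzymes, of which 5 of 6 rose. Lgmn (asparagine endopeptidase, which processes cathepsins; ENSMUSG00000021190, chromosome 12, 102394084 to 102439813) measured 116, 128 and 123 CPM in Control and 232, 177 and 196 CPM in TAF15 OE. It rose 1.65-fold (log2 0.72, SE 0.10, adjusted p = 0.00129), and was the member of this class called with each library left out. Grn (progranulin, which is cleaved to granulins in the lysosome; ENSMUSG00000034708, chromosome 11, 102430315 to 102437048) measured 74.9, 90.6 and 84.0 CPM in Control and 178, 112 and 132 CPM in TAF15 OE. It rose 1.69-fold (adjusted p = 0.0308). Its call was lost without Control 1, 2 or 3 or TAF15 OE 3 (adjusted p from 0.0765 to 0.107), and its log2 fold change was 0.76 with all libraries and 0.46 without Control 1 and TAF15 OE 1.

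The 3 smaller rises were in enzymes of lipid and protein breakdown. Asah1, the acid ceramidase, measured 45.4, 51.3 and 46.5 CPM in Control and 60.8, 59.2 and 58.2 CPM in TAF15 OE (1.25-fold, log2 0.32, SE 0.08, adjusted p = 0.0193). Ppt1, which removes palmitate from proteins, measured 89.1, 88.5 and 91.3 CPM in Control and 109, 108 and 110.3 CPM in TAF15 OE (1.22-fold, log2 0.28, SE 0.06, adjusted p = 0.0119). Tpp1, a tripeptidyl peptidase, measured 92.2, 89.9 and 93.8 CPM in Control and 109.8, 109 and 113 CPM in TAF15 OE (1.20-fold, log2 0.26, SE 0.06, adjusted p = 0.0179). In each, all treated libraries lay above all controls. The calls of these genes were lost in some fits with 1 library left out, while their log2 fold changes stayed between 0.24 and 0.37. Calls over all genes also dropped in such fits, from 2559 to between 1331 and 2501. Asah1 was lost without Control 1, Control 3, TAF15 OE 1 or TAF15 OE 2 (adjusted p up to 0.0812), Tpp1 without Control 1, Control 2, TAF15 OE 2 or TAF15 OE 3 (up to 0.0715), and Ppt1 without TAF15 OE 2 (0.0581). Without Control 1 and TAF15 OE 1 together, 2 of the 6 genes in this class were called, against 2214 of 16968 genes in all. Prosaposin, from Psap, gives the saposins that activate sphingolipid hydrolases. It had the highest level of the 54 genes, at a mean of 646 FPKM (counts divided by gene length and the library total) in Control and 748 FPKM in TAF15 OE, and measured 1579, 1958 and 1871 CPM in Control and 2116, 1884 and 2074 CPM in TAF15 OE. The groups overlapped, and Psap was not called (log2 0.17, SE 0.09, adjusted p = 0.251).

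The membrane proteins all rose. Cd68 (macrosialin, an endolysosomal glycoprotein of phagocytes; ENSMUSG00000018774, chromosome 11, 69664213 to 69666153) measured 11.8, 14.1 and 10.9 CPM in Control and 37.4, 29.0 and 33.6 CPM in TAF15 OE. The groups were far apart, and the rise was 2.72-fold (log2 1.44, SE 0.13, adjusted p = 0.000143). Laptm5 (a lysosomal transmembrane protein of blood-derived cells; ENSMUSG00000028581, chromosome 4, 130913125 to 130936141) measured 54.1, 49.8 and 58.3 CPM in Control and 157, 101.5 and 114 CPM in TAF15 OE. It rose 2.30-fold (log2 1.20, SE 0.16, adjusted p = 0.00451), and TAF15 OE 1 was the highest library.

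Lamp1, Lamp2 and Scarb2 are expressed in most cell types. Lamp1 (the most abundant lysosomal membrane glycoprotein; ENSMUSG00000031447, chromosome 8, 13159161 to 13175338) measured 176, 207 and 192 CPM in Control and 278, 249 and 245 CPM in TAF15 OE. Its rise was 1.34-fold (adjusted p = 0.00585), and its log2 fold change was 0.43 with all libraries and 0.28 without Control 1 and TAF15 OE 1. Lamp2, needed for chaperone-mediated autophagy and fusion with autophagosomes (chromosome X, 38401357 to 38456454), measured 88.2, 115 and 119 CPM in Control and 154, 162 and 182 CPM in TAF15 OE. It rose 1.54-fold (log2 0.63, SE 0.11, adjusted p = 0.00779) without overlap. Scarb2 (LIMP2, a lysosomal membrane protein that also acts as a sorting receptor; chromosome 5, 92441314 to 92506833) was the tightest, at 157, 157 and 163 CPM in Control and 222, 223 and 219.8 CPM in TAF15 OE, a 1.39-fold rise (log2 0.48, SE 0.06, adjusted p = 0.000943).

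Cd63, a tetraspanin of late endosomes and lysosomes, measured 51.1, 89.4 and 82.4 CPM in Control and 128, 135 and 155 CPM in TAF15 OE. The rise was 1.87-fold (log2 0.90, SE 0.22, adjusted p = 0.0461), and Control 1 lay lowest. The call was lost without any library except Control 1 (adjusted p from 0.0511 to 0.143).

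**Figure D3:**
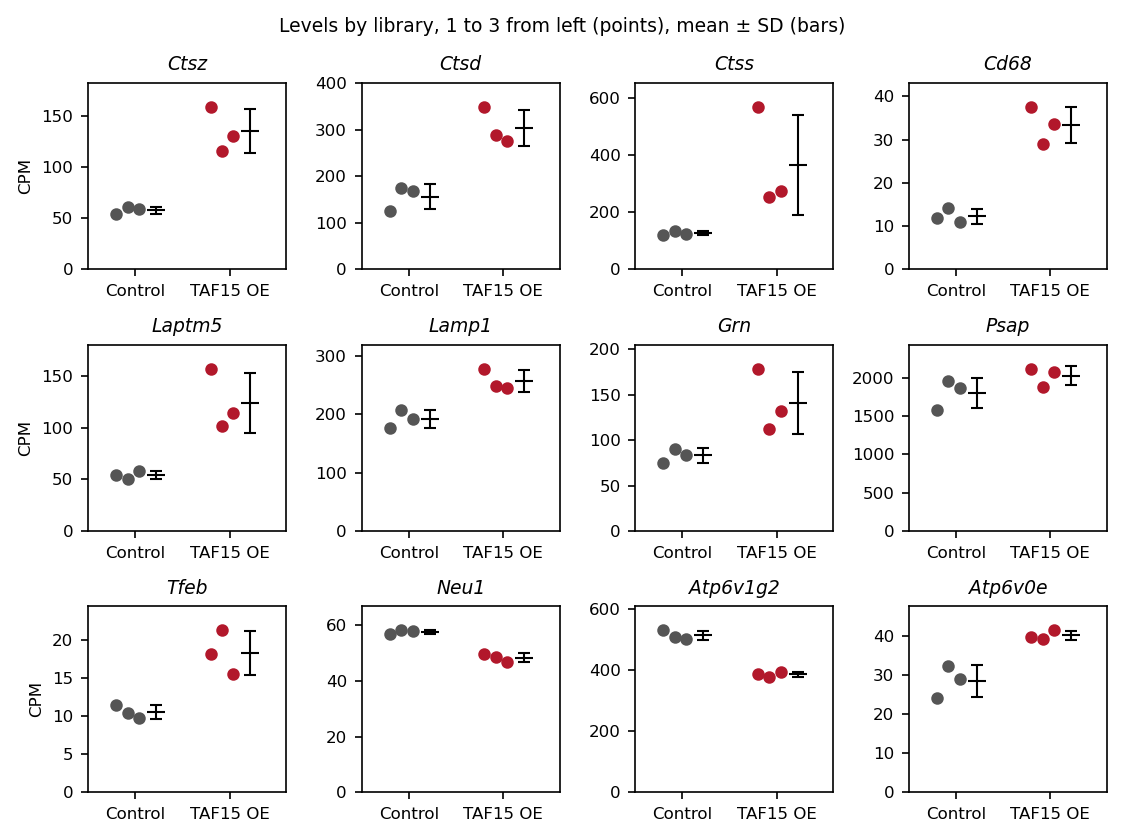
CPM in each library of 12 genes of the list, on linear axes from 0, with the mean of each group as a dash and bars of 1 SD. Ctss shows 568 CPM in TAF15 OE 1 against 255 and 274 CPM in the other treated libraries, while Atp6v1g2 shows 502 to 529.9 CPM in Control and 376 to 393 CPM in TAF15 OE.

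Tfeb (ENSMUSG00000023990, chromosome 17, 47737030 to 47792419) was weakly expressed, at 11.5, 10.5 and 9.73 CPM in Control and 18.1, 21.3 and 15.6 CPM in TAF15 OE. All treated libraries were higher, and the rise was 1.74-fold (log2 0.80, SE 0.14, adjusted p = 0.0045). Unlike most cathepsins, its highest level was in TAF15 OE 2. TFEB is held in the cytosol when mTORC1 phosphorylates it at the lysosome, and neither its protein nor its location was measured here. Among 17 tested genes for its relatives, the Ragulator and mTORC1, 1 rose, Fnip1 (log2 0.25, adjusted p = 0.0287). That is no larger a share than the 9.32% of all tested genes that rose. Tfe3 had a log2 fold change of 0.14 (adjusted p = 0.286), and Mitf of 0.30 (adjusted p = 0.325).

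In the V-ATPase, 7 of 17 tested subunits fell and 1 rose, against 5.95% and 9.32% of all tested genes. Of the 17, 14 had a log2 fold change below 0. The share below 0 over all tested genes was not computed, and their median was 0.03. The 7 falls that were called were small, from 1.16-fold to 1.33-fold. In V0, the membrane sector, Atp6v0a1 (the a1 subunit, which in neurons reaches synaptic vesicles; ENSMUSG00000019302, chromosome 11, 101009452 to 101063719) measured 590.2, 617 and 613 CPM in Control and 531, 469 and 467 CPM in TAF15 OE. It was lower in every treated library (log2 -0.31, SE 0.07, adjusted p = 0.0152). Atp6v0e2, the brain-enriched e subunit, measured 371, 356 and 337 CPM in Control and 310.0, 299 and 282 CPM in TAF15 OE (log2 -0.26, SE 0.07, adjusted p = 0.0263). Its paralogue Atp6v0e, the broadly expressed form, measured 24.2, 32.3 and 28.9 CPM in Control and 39.6, 39.3 and 41.4 CPM in TAF15 OE. It rose 1.41-fold (log2 0.49, SE 0.11, adjusted p = 0.0118), and was the subunit among the 17 that rose. Among the remaining V0 subunits, the c-ring gene Atp6v0c had a log2 fold change of -0.24 (adjusted p = 0.125) and the stalk gene Atp6v0d1 of -0.21 (adjusted p = 0.0606), with the treated libraries below the controls in both. Atp6v0b, a further proteolipid of the c-ring, had -0.12 (adjusted p = 0.394), and Atp6v0a2, a form of subunit a, had 0.20 (adjusted p = 0.14).

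In V1, the catalytic sector, 5 of 10 tested subunits fell, against 5.95% of all tested genes. Atp6v1g2 (a neuron-enriched form of stator subunit G; ENSMUSG00000024403, chromosome 17, 35233660 to 35238767) measured 529.9, 509 and 502 CPM in Control and 388, 376 and 393 CPM in TAF15 OE. The groups were well separated (log2 -0.41, SE 0.06, adjusted p = 0.00219), and it was the lower call among the 8 that held with each library left out. The stalk subunit Atp6v1d measured 215, 216 and 199 CPM in Control and 178, 173 and 174 CPM in TAF15 OE, a fall of 1.20-fold (log2 -0.26, SE 0.06, adjusted p = 0.0191). The regulatory subunit Atp6v1h measured 136, 138 and 124 CPM in Control and 107, 116 and 112 CPM in TAF15 OE (log2 -0.25, SE 0.07, adjusted p = 0.0347). In both, the treated libraries lay below the controls. The stator subunit Atp6v1c1 and the nucleotide-binding subunit Atp6v1b2 fell by 0.25 and 0.21 on the log2 scale (adjusted p = 0.0458 and 0.0478). The catalytic Atp6v1a had a log2 fold change of -0.13 (adjusted p = 0.209), and the G1 form Atp6v1g1 of 0.08 (adjusted p = 0.514). The stator subunit Atp6v1e1 had -0.20 (adjusted p = 0.074) and the small subunit Atp6v1f had -0.17 (adjusted p = 0.206).

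These calls sat close to the threshold. Atp6v1b2 was lost with any library left out (adjusted p up to 0.132). Atp6v1h was lost without any library but Control 3 (up to 0.103), and Atp6v1c1 and Atp6v0e2 without Control 1, Control 2, TAF15 OE 2 or TAF15 OE 3 (up to 0.143 and 0.0961). Atp6v0a1 was lost without Control 2, Control 3, TAF15 OE 2 or TAF15 OE 3 (up to 0.086), and Atp6v1d without Control 1, Control 2 or TAF15 OE 2 (up to 0.0782). On log2 FPKM 2 subunits were called lower, and with total counts as the only scaling 4. The 17 subunits had a negative median under each setting tried.

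For subunits a, e and G, the shares of the main forms in the summed FPKM of the subunit differed between the groups without overlap. For C and E the shares of both forms overlapped. Shares for B and d did not overlap either, but moved little. The mean Atp6v1b2 share was 99.88% in Control and 99.95% in TAF15 OE, and that of Atp6v0d1 100% and 99.85%. Among the a subunits, Atp6v0a1 held 86.8%, 87.8% and 85.6% in the Control libraries, against 77.7%, 79.8% and 78.2% with TAF15. Tcirg1, the a3 form of osteoclasts and immune cells, whose symbol the pattern does not match, held 3.69%, 3.82% and 4.52% in the Control libraries, against 11.2%, 8.44% and 8.74% with TAF15. In counts Tcirg1 rose 2.11-fold (log2 1.08, SE 0.18, adjusted p = 0.00586). For subunit G, the Atp6v1g2 share went from 78.1% ± 1.46 to 71.7% ± 0.965 (SD, n = 3) and that of Atp6v1g1 from 21.9% ± 1.47 to 28.3% ± 0.965. For subunit e, the Atp6v0e share went from 5.54% ± 0.886 to 8.99% ± 0.614. These shares are a description and were given no test. As a scale for non-overlap, single genes separated the groups in CPM with TAF15 OE above in 19.1% and below in 15.5% of all tested genes.

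**Figure D4:**
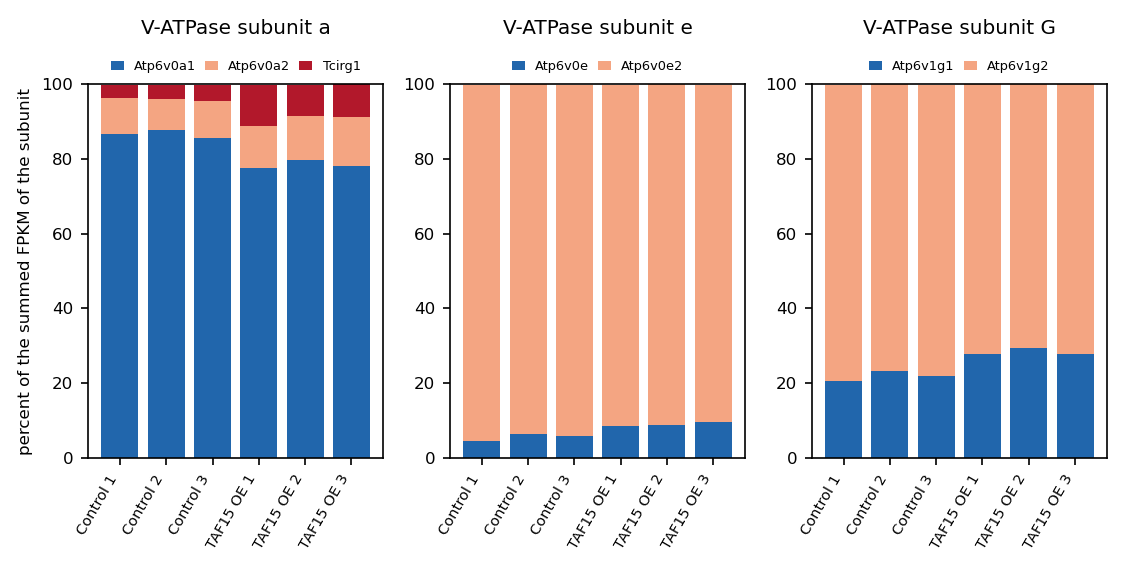
Share of each form in the summed FPKM of V-ATPase subunits a, e and G, for each library. The Atp6v0a1 share is 85.6% to 87.8% in Control and 77.7% to 79.8% in TAF15 OE, and the Tcirg1 share is 3.69% to 4.52% and 8.44% to 11.2%.

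The V-ATPase genes that were not tested had few counts. Atp6v0d2, an osteoclast and macrophage form, had 0 counts in every Control library and 6, 1 and 9 in TAF15 OE. Atp6v1b1, known from kidney and inner ear, had 7, 9 and 12 counts in the Control libraries, against 3, 3 and 6 with TAF15. Atp6v0a4, Atp6v1e2 and Atp6v1g3 had at most 6 counts in any library. Atp6v1c2 passed the filter with 14, 28 and 23 counts in the Control libraries, against 5, 13 and 17 with TAF15, and its log2 fold change of -0.97 was not called (adjusted p = 0.176).

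V-ATPase partners outside the symbol pattern were mostly not called, and the shares over all tested genes were 9.32% higher and 5.95% lower. Of 12 tested, Tcirg1 rose and Rogdi, a subunit of the RAVE-type complex that assembles the pump, fell by 0.44 (log2, adjusted p = 0.00618). The accessory subunit genes Atp6ap1 and Atp6ap2 had log2 fold changes of -0.08 and -0.06.

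Levels compared per length show where transcripts were concentrated. Summed FPKM over the cathepsins was 334, 406 and 380 in the Control libraries, against 954, 641 and 676 with TAF15. Over the V-ATPase subunits it was 1181, 1238 and 1144 in the Control libraries, against 1062, 1053 and 1037 with TAF15. Neither pair of groups overlapped, and the cathepsin sum was highest in TAF15 OE 1. A large part of that sum was Ctss, which edgeR did not call. It held 84.9, 98.0 and 91.4 FPKM in the Control libraries, against 419, 191 and 207 with TAF15. The membrane proteins summed to 132, 163 and 154 FPKM in Control and 262, 236 and 251 in TAF15 OE.

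Other lysosomal genes outside the 54 are set against 9.32% higher and 5.95% lower among all tested genes. Of 32 further hydrolases and cofactors, 9 rose, with a median log2 fold change of 0.29. They included Naaa, which hydrolyses N-acylethanolamines (log2 0.50, adjusted p = 0.00129), Dnase2a, a lysosomal DNase (log2 0.89, adjusted p = 0.00488), and Gm2a, the GM2 activator (log2 0.58, adjusted p = 0.00693). Of 27 tested membrane proteins, channels and transporters, 8 rose and 1 fell, with a median of 0.16. Slc11a1, the phagosomal metal transporter, rose 3.55-fold (adjusted p = 0.000633), and the nucleoside transporter Slc29a3 rose by 0.87 on the log2 scale (adjusted p = 0.00531). Npc1, which exports cholesterol, rose by 0.34 (adjusted p = 0.0127), and the peptide transporter Slc15a3 by 1.42 (adjusted p = 0.013). Lamp5, a neuronal family member, fell by 0.37 (adjusted p = 0.0205). Of 19 genes that sort enzymes to lysosomes, such as the mannose 6-phosphate receptors and sortilin, 0 were called by edgeR. The median log2 fold change of the 19 was -0.06. In edgeR 2 had an unadjusted p below 0.05, Sort1 (log2 -0.23) and Vps29 (log2 -0.25). DESeq2 called these 2 of the 19, and 2749 of 16462 genes in all, so their count does not set the list apart. The share of all genes with an unadjusted p below 0.05 in edgeR was not computed.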

How the data were processed

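RNA from 6 hippocampi, 1 mouse per library, was sequenced on a NovaSeq instrument after Trizol extraction and TruSeq library preparation, per the labels' protocols. The submitters' processing notes name CASAVA, Bowtie2 2.2.3, HISAT2 2.1.0, TopHat2 and GRCm38. The counter, the annotation, the strandedness and the authors' test are not given in the sources used here. Reads of overlapping antisense genes cannot be told apart. Raw counts per gene were deposited as whole numbers. The authors' FPKM table scales counts by gene length and library total. A comparison table by the authors repeats these counts (equal in 100% of cells) and adds a normalised signal (a mean over libraries), a fold change as a ratio and as log2, and the authors' p-value. From it the adjusted p-values are used, and the log2 fold change of Tfeb for a comparison with DESeq2. Below 0.05 the adjusted p-values gave 26 higher and 10 lower of the 54 genes, the counts that DESeq2 gave here. The log2 fold change of Tfeb was 0.766 both there and with DESeq2 here, so the 2 are not separate evidence.

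Counts were analysed with edgeR 4.0.16 in R 4.3.3 (filterByExpr with minimum count 10 and minimum total 15, TMM scaling with factors from 0.964 to 1.03, robust quasi-likelihood F-test with group as the term, Benjamini-Hochberg adjustment over 16758 genes). Library totals ran from 14965464 to 16067000 counts, and the biological coefficient of variation was 13.1%. CPM is relative to the TMM-scaled total. SE is the standard error on the log2 scale. No library was a duplicate of another (lowest chi-square over its degrees of freedom, 4.77). Symbols and positions are the authors'; all 54 genes were found in GENCODE M21, 50 at the same position. Exons of 16 tested genes overlap another annotated gene there, with no single overlap above 12.8% of exonic bases outside Ctsd and Ctsl. Atp6v0c and Cd63 have processed pseudogenes named after them that could share reads. Pseudogenes under other names were not searched for. The processed pseudogene Gm49230 lies over 6.09% of the exonic bases of Ctsl.

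Alternatives were scaling by DESeq2 (1.42.0) size factors or by totals alone, testing with DESeq2 or with limma-voom (limma 3.58.1), dropping the filter or keeping genes with a mean CPM over 1, limma-trend on log2 FPKM (pseudocount 1 or 0.1, keeping genes with a mean FPKM over 0.5 or unfiltered), the replicate number as a block and each library left out. Leaving out Control 1 and TAF15 OE 1 together was a later choice, made after seeing the data. The edgeR fit was tested on simulated counts, where the seeded changes that were called had the right sign. The share of seeded changes that were missed is not given here. The share of false calls was above the threshold set for the adjusted p, so calls close to that threshold are less certain. The size of that excess is not given here. Fewer genes were seeded with a change than were called in the data, and the smallest seeded change was larger than the called V-ATPase falls. The share of false calls in the data may therefore differ. The other tools were not simulated. All 54 genes are named, with values per library for up to 6 called genes of each class by adjusted p and for Tfeb, Lamp1, Lamp2, Ctsd, Ctsb, Psap and Grn whatever their result. From each further list up to 4 called genes with the smallest p in each direction are named, and Tcirg1 whatever its result; 1 gene that this rule would name is not reported here. Outside that rule, Ctss, Ctsc, Ctsh, Cstb, Tfe3, Mitf, Sort1, Vps29, Atp6ap1 and Atp6ap2 are given after their values were seen. The members and lists were chosen with earlier results of these data known. Figures were drawn with matplotlib 3.10.9.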

Additional observations from a re-analysis of the deposited data

How the results depend on the processing

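Of the 25 higher calls, 19 held with each library left out in turn, and of the 8 lower calls 1 did. Over those fits the higher count ran from 21 to 24 and the lower from 1 to 7. Calls over all genes ran from 1331 to 2501 in the same fits, against 2559 with all 6 libraries. By class the higher count ran from 8 to 9 for cathepsins, 3 to 4 for glycosidases, 5 to 6 for membrane proteins and 2 to 4 for other soluble proteins, and the lower count for V-ATPase subunits from 1 to 6. In limma-trend on log2 FPKM (pseudocount 1 or 0.1), 2 genes were lower in all, and 2 among V-ATPase subunits. Those fits called 1551 and 1630 of 16333 genes. Without the filter on FPKM, 14 genes were higher and 1 lower. By class, 5 cathepsins, 2 glycosidases, 3 other soluble proteins and 0 V-ATPase subunits were higher and 1 V-ATPase subunit lower. Calls over all genes dropped in that setting as well, to 669 of 30821, of which 496 were higher, against 2559 of 16758 in the main fit. The cause was not tested. With total counts alone, 4 genes were lower, all V-ATPase subunits. That scaling also moved the calls over all genes from 1562 higher of 2559 to 1838 higher of 2554. Without the count filter, 2 V-ATPase subunits were higher. Without Control 1 and TAF15 OE 1, 2 other soluble proteins were higher, against 1197 of 16968 genes in all.

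The direction reversed for uncalled genes alone. Ctsf went to -0.049 on the log2 scale in the fit without Control 1 and TAF15 OE 1. Ctsk ran from -0.048 to 0.40 over the fits with a library left out, lowest without TAF15 OE 2, and Gaa from -0.092 to 0.053, highest without Control 2. Gaa was also at 0.031 with total counts alone, and at 0.035 for each of the 3 settings on log2 FPKM.

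With the replicate number as a block, 23 genes were higher and 10 lower, 7 cathepsins were higher and 9 V-ATPase subunits lower, and Ctsd (adjusted p = 0.0725) and Grn (adjusted p = 0.143) lost their calls. Over all genes the block gave 3291 calls against 2559. Same-numbered libraries deviated together with correlations of 0.126, 0.0776 and 0.0871, which are not all above 0.1, and the labels state no pairing. Each library correlated best with its own number, a hint from the data and not the design. Size factors of DESeq2, a mean of at least 1 CPM, DESeq2 itself and limma-voom ended no call. With 3 mice a group, differences the size of the V-ATPase falls lie near the limit of what was called, and genes with few counts were not tested.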
